A study of Mus musculus with 6 samples.

Results

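Myc and the genes of the Max network were followed in AE9a leukemia cells from the central and the endosteal bone marrow of mice. The members are Myc, Mycn and Mycl, their shared partner Max, the Mxd proteins Mxd1, Mxd3, Mxd4 and Mxi1, and the other Max partners Mnt and Mga. Myc was chosen by its lower level in the endosteal libraries, which was known from earlier results of these data, and the other members by family name. The table of counts held all 10 members among 54532 genes. Of these, 9 had at least 1 count and 8 passed the filter on low counts and were tested.

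AE9a, or AML1-ETO9a, is a spliced form of the fusion of AML1 (Runx1) and ETO (Runx1t1) in acute myeloid leukemia with t(8;21). In all 6 libraries the cells came from C57BL/6 leukemia made by a retrovirus carrying AE9a in c-Kit+ hematopoietic cells and passed through transplanted mice, so every group carried the same oncogene. The CBM group (3 libraries) held leukemia cells flushed from the central marrow, and the EBM group (3 libraries) held leukemia cells that collagenase released from the endosteal surface of the flushed bones. No drug treatment is named for either group. The methods give female C57BL/6 mice bought at an age of 6 to 8 weeks, but not the age at which cells were taken. Only the EBM cells went through the digestion, so region and digestion cannot be told apart.

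Myc is a basic helix-loop-helix leucine zipper transcription factor that binds the E-box CACGTG only as a dimer with Max. Myc-Max dimers activate genes of ribosome synthesis, nucleotide and polyamine synthesis and the cell cycle. Mxd proteins, Mnt and Mga compete for Max and for the same E-boxes, and the Mxd proteins and Mnt recruit Sin3 and histone deacetylases to repress transcription. Myc transcripts and Myc protein are both short-lived, and Mxd1 is known for its increase when myeloid progenitors mature. In acute myeloid leukemia Myc is a common driver of growth.

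RefSeq promoter windows (GRCm38.p6, from 250 bases before to 50 bases after each annotated start) were found for 9 of the 10 members, all but Myc. The E-box CACGTG, which reads the same on both strands, was present in the windows of 3 of these 9 genes, Max, Mnt and Mxd4. It was present in 7.15% of the 32851 windows of that length, and 11.9% of the 9062 tested genes with a window had it. The 3 member sites are shown because they are the letters that the network's own dimers recognise. Each is written 5′ to 3′ on the strand of the gene, with the E-box in capitals.
Max, chr12:76962234-76962263, minus strand: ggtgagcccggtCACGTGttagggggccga
Mnt, chr11:74830789-74830818, plus strand: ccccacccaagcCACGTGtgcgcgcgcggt
Mxd4, chr5:34187912-34187941, minus strand: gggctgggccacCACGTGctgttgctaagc
The E-box of Max spans the annotated start, with its first base at position -3, while those of Mnt and Mxd4 begin at positions -123 and -219. No factor binding was measured, so a match describes the letters alone.

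The CBM libraries had from 17078883 to 19462964 counts and the EBM libraries from 16436526 to 18413131, and a floor of 3 counts corresponded to between 0.154 and 0.183 CPM (counts scaled to the size of the library). Kit, the receptor used to take the starting cells, had between 3046 and 4513 counts in every library, and Gata2 had at least 13297, while Ptprc (the leukocyte antigen CD45) had between 2 and 68 and Cebpa (a myeloid regulator) between 0 and 13. Of 11 osteoblast and stromal markers, 9 had at most 10 counts in any library, with Sp7 and Alpl at 0 everywhere. Summed levels were between 1675 and 2377 CPM for 10 progenitor markers and between 7.89 and 13.2 CPM for the osteoblast and stromal markers. They were between 0.964 and 3.37 CPM for 5 endothelial markers, between 0.794 and 8.95 CPM for 6 lymphoid markers, and between 258.8 and 565.6 CPM for 6 markers of macrophages and osteoclasts, of which Acp5 alone had over 21 counts in a library. The library CBM 2 stood apart in markers of mature cells. Its 7 neutrophil markers summed to 225.1 CPM, against 8.31 and 4.22 CPM in CBM 1 and CBM 3 and between 35.5 and 171.1 CPM in EBM. Its 7 erythroid markers summed to 5644 CPM, against between 2169 and 4020 CPM in the other 5 libraries. Results that change without CBM 2 are given with and without it.

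Levels between genes were compared in TPM, a share of the library's transcripts for which counts are divided by the deposited gene length. Among the Myc genes, Myc was the only one at a measurable level. Mycl, known from lung cancer and dendritic cells, was at 0 counts in all 6 libraries, and Mycn, known from neuroblastoma and fetal stem cells, had 2 counts in EBM 2 and 0 in the others, below the floor of 3 counts. In CBM, Myc stood at 155.0, 124.0 and 163.1 TPM. In EBM it stood at 58.7, 57.7 and 54.8 TPM. All 3 EBM values were below the lowest CBM value, and the EBM libraries lay close together.

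Max, the shared dimer partner of the network, had 127.3, 131.6 and 134.3 TPM in CBM and 126.9, 119.1 and 131.6 TPM in EBM. The groups overlapped. By mean TPM over all libraries, Max was at the 90.0th percentile of the tested genes and Myc at the 86.8th. In CBM the order of the means was Myc (147.4 ± 20.7 TPM, SD, n = 3), Max (131.1 ± 3.57), Mxi1 (50.8 ± 11.02), Mnt (40.8 ± 4.32), Mxd4 (29.3 ± 3.87), Mxd1 (26.5 ± 11.8), Mga (25.2 ± 1.83) and Mxd3 (10.9 ± 2.92). In that order, Myc and Max, Mxi1 and Mnt, Mxd4 and Mxd1, and Mxd1 and Mga overlapped between libraries. In EBM the order became Max (125.9 ± 6.29), Myc (57.1 ± 2.04), Mxi1 (49.1 ± 2.51), Mnt (46.3 ± 4.12), Mxd1 (42.7 ± 4.74), Mxd4 (27.5 ± 1.28), Mga (22.6 ± 3.78) and Mxd3 (8.45 ± 2.03). There, Mxi1 and Mnt and then Mnt and Mxd1 overlapped, and the other neighbours did not. Myc thus stood beside Max in CBM and below it in each EBM library.

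**Figure D1:**
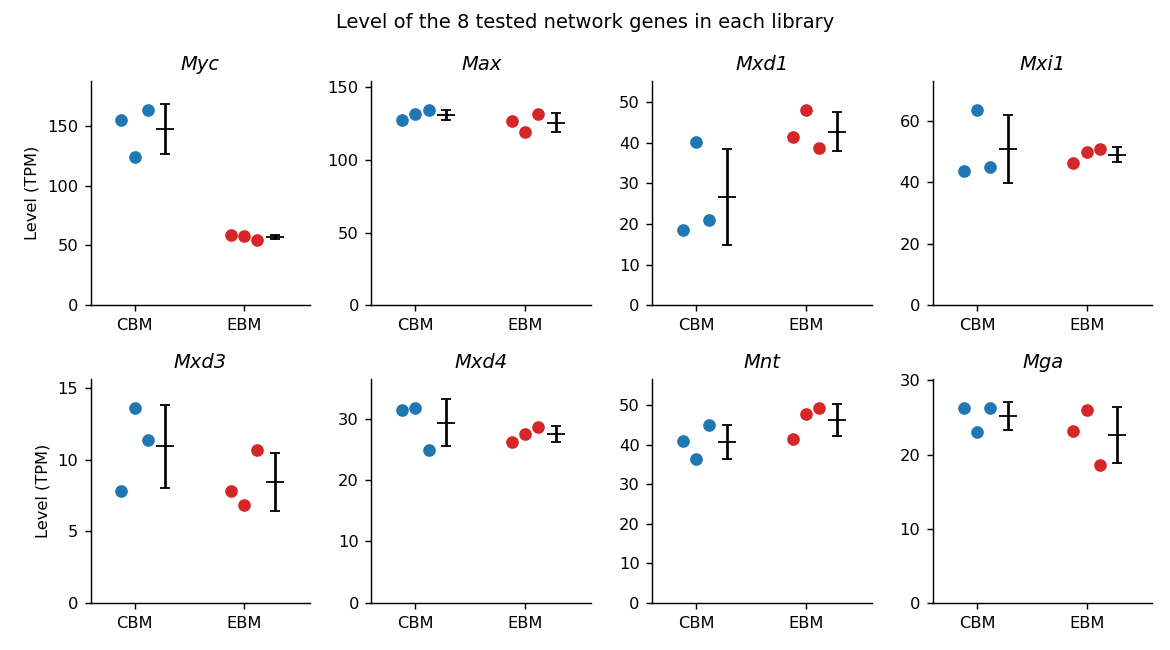
Level in TPM (y axis, from 0) of the 8 tested network genes in each of the 3 CBM libraries (blue) and 3 EBM libraries (red), with the mean and SD of each group in black. Myc was between 124.0 and 163.1 TPM in CBM and between 54.8 and 58.7 TPM in EBM, and Mxd1 in CBM 2 (40.1 TPM) lay among the EBM values.

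The comparison of EBM with CBM asked how leukemia cells at the bone surface differ from those of the central marrow. Across all genes, edgeR's quasi-likelihood test called 0 of 13352 (0.0%) at an adjusted p under 0.05, and limma-voom also called 0. Before adjustment, 1056 genes (7.91% of those tested) had a p under 0.05, and DESeq2 called 175 of 12619 (1.39%) at its adjusted threshold. Among the members, edgeR called 0 of 8 and DESeq2 called 1, Myc. At an unadjusted p under 0.05, 3 of 8 members passed, Myc lower and Mxd1 and Mnt higher in EBM. In CPM scaled by TMM, the same 3 members had groups that did not overlap, where 15.1% of all tested genes did so. Since Myc was selected on this contrast, these counts are a description and support nothing. For the members, differences below are log2 fold changes of EBM over CBM with their SE, without a test. For genes outside the members, p-values from the fits over all genes are given in places.

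Myc had 133.0, 108.3 and 137.1 CPM in CBM and 53.8, 51.3 and 52.8 CPM in EBM. The means were 126.1 ± 15.6 CPM and 52.6 ± 1.25 CPM (SD, n = 3 libraries a region), 2.40-fold higher in CBM, with a log2 fold change of -1.26 (SE 0.11). Of all tested genes, 57 had a log2 fold change as low or lower. In bulk RNA, fewer cells that express Myc and less Myc RNA per cell cannot be told apart. Without each library in turn the log2 fold change stayed between -1.36 and -1.20. The groups also remained apart in TPM, with DESeq2's size factors, with library totals and after thinning to the smallest library. Myc lies on chromosome 15 (61985391 to 61990374, plus strand, GRCm38), and no other annotated gene overlaps it.

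Pvt1, the long noncoding RNA gene next to Myc that is often amplified with it, starts 47612 bases after the end of Myc. It had 89.3, 63.0 and 84.0 CPM in CBM and 98.5, 84.0 and 77.0 CPM in EBM. The groups overlapped, and the log2 fold change was 0.14 (adjusted p = 0.927, edgeR).

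Mxd1, the Mxd protein of maturing myeloid cells, had 41.4, 91.1 and 45.9 CPM in CBM and 98.7, 111.1 and 97.1 CPM in EBM. CBM 2 was near the EBM values, while CBM 1 and CBM 3 were far below them. The means were 59.5 ± 27.5 and 102.3 ± 7.66 CPM, 1.72-fold higher in EBM, with a log2 fold change of 0.78 (SE 0.30). Without CBM 2 it was 1.23, and without CBM 1 or CBM 3 it was 0.58 or 0.63. In TPM the groups overlapped, with 40.1 TPM in CBM 2 and 38.7 TPM in EBM 3. The neutrophil markers were also highest in CBM 2 of the CBM libraries, and in both groups the library 2 had the highest Mxd1 and the highest neutrophil sum. Within CBM 1 and CBM 3 neutrophil markers were lower than in each EBM library, as Mxd1 was. Over all 6 libraries 5 of the 7 neutrophil markers were higher in EBM (median log2 fold change 0.04), and without CBM 2 all 7 were (median 3.88). Their part in the Mxd1 difference was not tested.

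**Figure D2:**
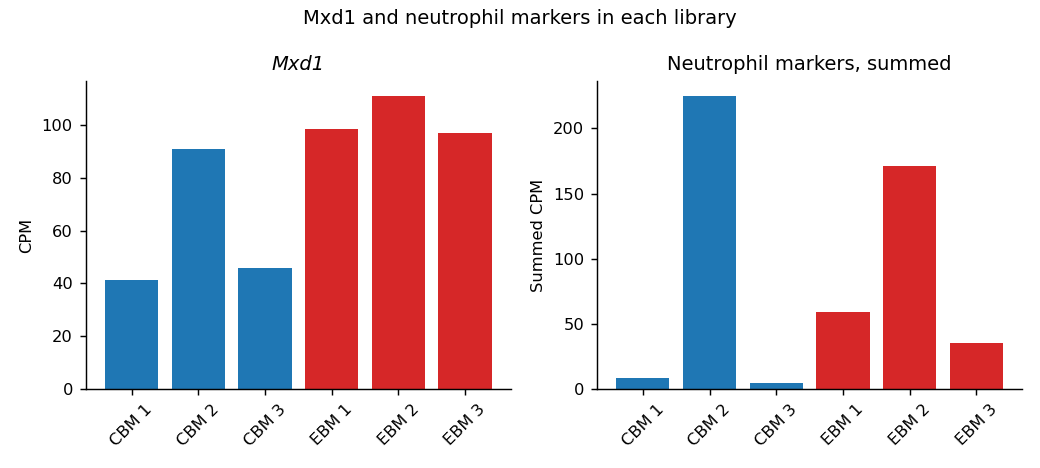
Mxd1 in CPM (left) and the summed CPM of 7 neutrophil markers (right) in each of the 6 libraries, with CBM in blue and EBM in red and both y axes from 0. CBM 2 had 91.1 CPM of Mxd1 and 225.1 CPM of the markers, while CBM 1 and CBM 3 were the lowest libraries in both.

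The other 3 Mxd genes had overlapping groups. Mxi1, a tumor suppressor of the Mxd family, had 77.7, 114.7 and 78.4 CPM in CBM and 87.6, 91.9 and 101.6 CPM in EBM, with CBM 2 the highest of the 6. Its log2 fold change was 0.05 (SE 0.17), and it was 0.27 without CBM 2. Mxd4 had 84.1, 86.6 and 65.3 CPM in CBM and 74.8, 76.4 and 86.3 CPM in EBM, a log2 fold change of 0.01 (SE 0.13). Mxd3, the Mxd gene of cycling cells, was the lowest of the tested members, with 5.86, 10.4 and 8.34 CPM in CBM and 6.24, 5.29 and 8.995 CPM in EBM (log2 fold change -0.26, SE 0.29). It ends on the opposite strand to Prelid1 with 105 shared bases, and Prelid1 had between 3813 and 6253 counts, so the low counts of Mxd3 are uncertain where counting did not use the strand.

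Mnt, the broadly expressed antagonist that pairs with Max and recruits Sin3, had 59.9, 54.1 and 64.4 CPM in CBM and 64.9, 72.7 and 80.9 CPM in EBM. The lowest EBM library was just above the highest CBM library, and the log2 fold change was 0.29 (SE 0.12). The separation was lost with library totals (up to 66.8 CPM in CBM and from 64.0 CPM in EBM) and in TPM. Mga, the Max partner of a Polycomb complex, had 127.0, 113.8 and 124.7 CPM in CBM and 120.1, 130.8 and 100.9 CPM in EBM, which overlapped (log2 fold change -0.05, SE 0.12). Max differed by 0.05 (SE 0.10). The signs for Max, Mxi1, Mxd4 and Mga changed under at least 1 alternative, so no direction is given for them.

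**Figure D3:**
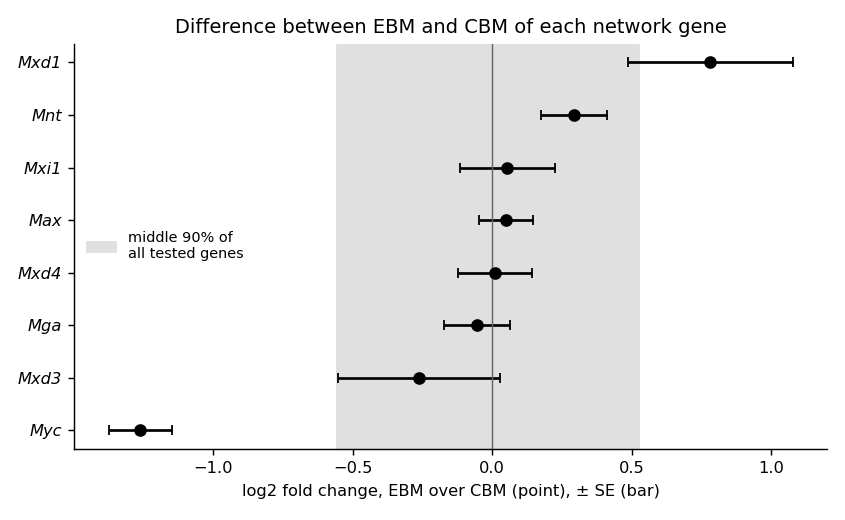
Log2 fold change of EBM over CBM (x axis, points) with its SE (bars) for the 8 tested network genes, over the band that holds the middle 90% of all tested genes (-0.56 to 0.53, gray). Myc at -1.26 and Mxd1 at 0.78 lie outside the band, and the other 6 genes inside it.

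Because these proteins share Max, their transcripts were also set against each other within each library. The TPM of Myc, the 4 Mxd genes, Mnt and Mga summed to 330.9 ± 6.51 in CBM (SD, n = 3) and to 253.6 ± 9.53 in the 3 EBM libraries. Myc made up 47.9%, 37.3% and 48.5% of that sum in CBM, and 24.0%, 21.9% and 21.8% in EBM. The EBM shares were below every CBM share, and the lowest CBM share was that of CBM 2. Mxd1 made up 5.73%, 12.1% and 6.23% in CBM and 16.9%, 18.2% and 15.4% in EBM. The sum holds Myc, so a lower Myc by itself raises the share of each other partner. The mean share of Mnt was 12.3% in CBM and 18.2% in EBM. In TPM the groups overlapped for both Mxd1 and Mnt. Myc to Max was 1.22, 0.942 and 1.21 in CBM and 0.463, 0.484 and 0.416 in EBM, while Myc to the summed Mxd genes was 1.53, 0.833 and 1.595 in CBM and 0.483, 0.436 and 0.424 in EBM. Both ratios contain Myc and so repeat its difference. The Mxd genes alone summed to 117.6 ± 27.1 TPM in CBM and 127.6 ± 5.52 TPM in EBM, closer than the spread in CBM. That spread came from CBM 2, at 148.9 TPM. CBM 1 and CBM 3, at 101.6 and 102.3 TPM, lay below each EBM library (121.5 to 132.2 TPM). These are shares of transcripts, and protein was not measured.

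**Figure D4:**
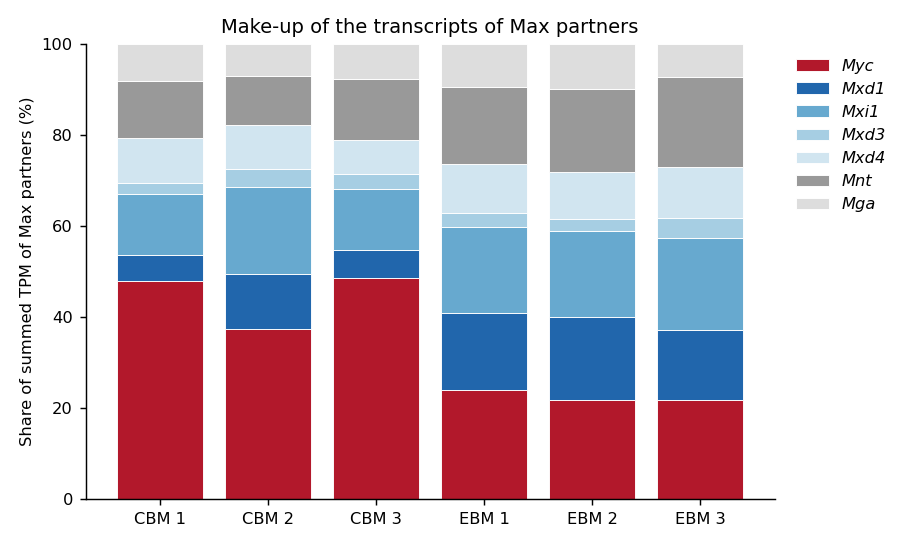
Share of each Max partner in the summed TPM of the 7 tested partners (y axis, percent) in each library. Myc, at the bottom, fills between 37.3% and 48.5% of the CBM bars and between 21.8% and 24.0% of the EBM bars, and Mxd1 above it between 5.73% and 12.1% and between 15.4% and 18.2%. The sum includes Myc, so a lower Myc by itself raises the other shares.

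Of a list of 85 genes that Myc is known to activate, 84 were tested, and 64 were higher and 20 lower in EBM, beside 50.4% higher among all tested genes. The median log2 fold change was 0.07 (0.00 over all tested genes), and 81 of the 84 were within 0.5 in either direction. At an unadjusted p under 0.05, 3 of 84 were higher and 0 lower (7.91% of all tested genes passed in either direction), and DESeq2 called 2 of 84, both higher (1.39% of all genes it tested). The count of higher genes rested on the scaling and on single libraries. It was 40 of 84 with library totals, a scaling that moves the median of all genes to -0.07, 45 without CBM 2, 48 without EBM 3 and 70 without CBM 3. No direction for the list as a whole follows from it.

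Odc1, the rate-limiting enzyme of polyamine synthesis and a classical Myc target, had 536.8, 483.1 and 495.0 CPM in CBM and 922.6, 782.2 and 701.2 CPM in EBM. The groups lay apart, with a log2 fold change of 0.67 (SE 0.12, adjusted p = 0.193 by edgeR and 0.00134 by DESeq2). Supv3l1, a helicase of mitochondrial RNA decay, had between 37.5 and 40.9 CPM in CBM and between 61.0 and 69.3 CPM in EBM, a log2 fold change of 0.70 (SE 0.10, adjusted p = 0.123 by edgeR and 4.36e-05 by DESeq2). Rrp12, a ribosome synthesis factor, followed with 0.33 (SE 0.12), and was called by neither. The smallest p among lower genes went to Ung (uracil removal, -0.33), Cdc25a (cell cycle phosphatase, -0.24) and Cbx3 (-0.15), none under 0.05. The lowest log2 fold change of the list, -0.50, belonged to another gene, which was not under 0.05 either.

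Further genes of the list are given as examples chosen after their values were seen. Ncl (nucleolin) had between 889.2 and 1127 CPM in CBM and between 890.7 and 1111 CPM in EBM. Npm1 (nucleophosmin) had a log2 fold change of 0.06 (SE 0.09), and Nop56 -0.04 (SE 0.14). Cdk4, a cyclin-dependent kinase whose gene Myc-Max binds, had 0.05 (SE 0.10). Ccnd2 (cyclin D2) had -0.11 (SE 0.16), and Ldha (lactate dehydrogenase) 0.10 (SE 0.27). The groups overlapped for each of these 6 genes.

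**Figure D5:**
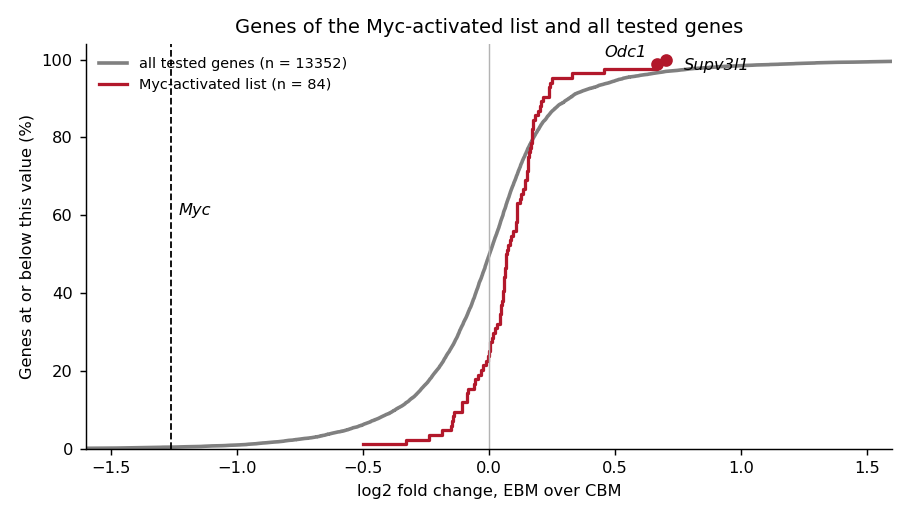
Cumulative share of genes (y axis, percent) by log2 fold change of EBM over CBM (x axis) for the 84 tested genes of the Myc-activated list (red) and all 13352 tested genes (gray), with Myc as the dashed line at -1.26. Odc1 and Supv3l1 are the list's highest values, and no gene of the list reaches the value of Myc.

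Of the 75 list genes with a promoter window, 22 (29.3%) held CACGTG. The share was 8.09% of all 27025 genes with a window and 11.9% of the 9062 tested genes with one. Cdk4 had 4 in its window, Ldha and Eif4e 2 each and Pes1 1. Their sites are shown because they carry the same E-box as the members' promoters while the log2 fold changes of these genes were between 0.05 (Cdk4) and 0.24 (Pes1), with the E-box in capitals, 5′ to 3′ on the strand of the gene (plus in each case, GRCm38.p6).
Cdk4, chr10:127063351-127063380: atggcagccagtCACGTGccacacagcgta
Cdk4, chr10:127063405-127063434: aagtcaaggggtCACGTGggatagcaacag
Cdk4, chr10:127063425-127063454: atagcaacaggtCACGTGgccgtcagggcc
Cdk4, chr10:127063512-127063541: aagggtgaagatCACGTGtccagaacgtcc
Ldha, chr7:46845647-46845676: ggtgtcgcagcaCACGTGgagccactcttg
Ldha, chr7:46845744-46845773: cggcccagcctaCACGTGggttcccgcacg
Eif4e, chr3:138527028-138527057: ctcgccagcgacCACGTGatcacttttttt
Eif4e, chr3:138527192-138527221: ggacacgtccgtCACGTGggcaggagccgg
Pes1, chr11:3963965-3963994: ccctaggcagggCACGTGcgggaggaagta
Of the 22 list genes with the E-box, 21 were higher in EBM (median log2 fold change 0.10), and of 52 tested list genes without it, 36 were (median 0.07). With library totals 12 of the 22 were higher, and without CBM 2 13 were. Over all tested genes, 55.1% of the 1081 with the E-box and 50.2% of the 7981 without it were higher in EBM.

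Of 14 genes that Myc is known to repress, 10 were higher in EBM, beside 50.4% of all tested genes. Their median log2 fold change was 0.41, and between 6 and 12 were higher over the alternatives. At an unadjusted p under 0.05 there were 2, both higher, beside 7.91% of all tested genes in either direction. Neither edgeR nor DESeq2 called one at the adjusted threshold. Hbp1, a repressor of cell cycle genes, had between 35.0 and 46.0 CPM in CBM and between 50.5 and 72.3 CPM in EBM (log2 fold change 0.64, SE 0.17). Ccng2, an atypical cyclin of resting cells, had between 45.4 and 51.0 and between 59.6 and 78.6 CPM (0.50, SE 0.13). Cdkn1a, the p21 inhibitor that Myc represses through Zbtb17, had 134.4, 41.7 and 76.6 CPM in CBM and 217.1, 175.1 and 77.7 CPM in EBM, with overlapping groups (0.90, SE 0.50). Cdkn1b (p27) was at -0.04 (SE 0.21).

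The 16 cofactors of Myc that were tested lay within 0.5 on the log2 scale, 12 of them higher in EBM (median 0.07) and 7 with library totals. Among all tested genes 50.4% were higher. Before adjustment 3 of the 16 had a p under 0.05 by edgeR, beside 7.91% of all tested genes. DESeq2 called 1, beside 1.39% of all genes it tested. Ccnt1, the cyclin of the elongation kinase P-TEFb, was called by DESeq2 (log2 fold change 0.41, SE 0.08, adjusted p = 0.0230, and 0.238 by edgeR), with between 88.7 and 95.1 CPM in CBM and between 118.2 and 129.5 CPM in EBM. Kat5 (an acetyltransferase, 0.29) and Zbtb17 (Miz1, 0.27) were under 0.05 before adjustment only. Of 11 corepressors of the Mxd proteins, Sin3a, their direct scaffold, was under that level too (0.29, SE 0.08). In that list 6 of 11 were higher (median 0.02), or 4 with library totals and 8 without CBM 2. The 10 genes of Mga's Polycomb complex were split 5 and 5, with none under 0.05.

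Among factors that set the stability of Myc protein, 14 of 16 were tested. Of these, 9 were higher, or 6 with library totals and 8 without CBM 2, beside 50.4% of all tested genes. Before adjustment 3 of the 14 had a p under 0.05 by edgeR, beside 7.91% of all tested genes. DESeq2 called 1 higher and 1 lower, beside 1.39% of all genes it tested. Usp22, a deubiquitinase of the SAGA complex, had 39.7, 31.0 and 36.8 CPM in CBM and 69.2, 85.6 and 102.0 CPM in EBM. It lay apart with a log2 fold change of 1.26 (SE 0.17, adjusted p = 0.120 by edgeR and 3.28e-07 by DESeq2). Skp2, an F-box protein that ubiquitinates Myc, had between 18.2 and 22.6 CPM in CBM and between 12.2 and 14.1 CPM in EBM (-0.65, SE 0.14, adjusted p = 0.275 by edgeR and 0.0267 by DESeq2). Fbxw7, the main ubiquitin ligase of Myc, was at 0.07 and Huwe1 at -0.03. Of the related Mlx branch, 3 of 5 genes were tested and none was under 0.05, with Txnip at 0.45 (SE 0.41).

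Among 17 proliferation genes the median was -0.04, with 7 above 0 and 10 below. The higher ones numbered 2 with library totals and 11 without CBM 2. Ccne1 (cyclin E1) was under 0.05 before adjustment (-0.75), and Mki67 was at 0.01. Of 19 genes known to respond to tissue digestion, 14 were higher (median 0.52, between 10 and 17 over the alternatives). Before adjustment 6 of the 19 had a p under 0.05 by edgeR, of which 1 was lower, beside 7.91% of all tested genes. DESeq2 called 2 of the 19 higher and 1 lower, beside 1.39% of all genes it tested. The log2 fold changes of the 19 ran from -1.31 to 4.40, and 4.40 was also the highest value of all tested genes. Hspa1b, a heat shock gene, had 9.50, 3.74 and 3.37 CPM in CBM and 112.2, 50.3 and 58.6 CPM in EBM, and Dusp1, an immediate early gene, had 1329, 764.0 and 595.1 CPM in CBM and 381.9, 447.2 and 399.8 CPM in EBM. Fos (-1.31, SE 0.74), Jun (-0.10) and Egr1 (0.38) had overlapping groups. The part of digestion in the Myc difference was not tested.

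The genes most like Myc were sought among 10249 other tested genes with a mean of at least 5 TPM, by Pearson's r of log2 CPM over the 6 libraries. The highest were Pcgf3 (0.998), Alg11 (0.992), Espnl (0.992), Snx18 (0.988) and Gm24119 (0.981). The most opposite were Sesn2 (-0.997), Stx11 (-0.995), Cish (-0.991), Coq10b (-0.990) and Scyl2 (-0.989). Pcgf3, a Polycomb ring finger gene, had between 53.3 and 56.96 CPM in CBM and between 42.8 and 43.1 CPM in EBM, a smaller difference than that of Myc (log2 fold change -0.36). Sesn2, a stress-induced inhibitor of mTORC1, was at 0.59, and Cish, a cytokine signalling inhibitor, at 0.65. The 6 libraries fall into the 2 groups, so each r mostly restates the difference between groups, and with so many genes high values arise by the search itself.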

How the data were processed

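RNA-seq was done on 6 libraries of mouse AE9a leukemia cells (rRNA-depleted, directional, paired-end). The authors deposited raw counts per gene with gene lengths and coordinates, and the submitters' notes name HISAT2 2.0.5 and mm10. The counting tool and its use of strand are not given in the sources used here. Of the gene identifiers, 98.3% of 54495 shared with GENCODE M21 had the same coordinates.

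Genes were kept by filterByExpr (13352) and tested with edgeR 4.0.16 (TMM, quasi-likelihood, Benjamini-Hochberg at 0.05), with SE as the absolute log2 fold change over the square root of F. DESeq2 1.42.0, limma-voom 3.58.1, other scalings, filters, thinning, the replicate numbers as a block and each library left out were alternatives. Log2 CPM used a prior count of 2. The tests were tested on simulated data. Floors cover counting error only. The labels do not say whether libraries came from separate mice, so p-values measure the spread between libraries, which may be technical. Libraries of a group differed by more than sampling noise (chi-square per degree of freedom 13.3 to 78.6).

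The members and gene lists were chosen with earlier results of these data known, and the lists come from general knowledge. Named genes are all members, the 5 most like and most opposite to Myc, and genes of the lists with a small p or called, though not all of these. The smallest p was followed in both directions for the Myc-activated list only. In the repressed, cofactor and corepressor lists 4 of 14, 4 of 16 and 5 of 11 genes were lower, and none of these was named by its p. Of the 2 lower stability factors with an unadjusted p under 0.05, only Skp2 was named. Of the 6 digestion genes with an unadjusted p under 0.05, not all were named. Other named genes (such as Ncl, Npm1, Nop56, Cdk4, Ccnd2, Ldha, Cdkn1a, Cdkn1b, Fbxw7, Huwe1, Txnip, Mki67, Fos, Jun, Egr1 and the genes whose sites are shown) were chosen after their values were seen. Marker lists for leukemia progenitors, osteoblasts, endothelium, neutrophils, lymphoid and erythroid cells and macrophages were summed in CPM.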

Additional observations from a re-analysis of the deposited data

How the results depend on the processing

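Over 14 alternatives, the log2 fold change of Myc stayed between -1.36 and -1.20, that of Mxd1 between 0.58 and 1.23 (the highest without CBM 2) and that of Mnt between 0.20 and 0.37, all with 1 sign. Mxd3 stayed negative (-0.52 to -0.06), and Max, Mga, Mxd4 and Mxi1 took both signs. The number of genes called, 0 by edgeR, was 175 by DESeq2 and 40 with no filter on low counts, and these 2 alternatives called Myc. The causes were not tested. The number of genes whose groups did not overlap, 2020, was between 2815 and 3580 with 1 library left out, where fewer libraries make separation easier. The median of the Myc-activated list was 0.07, -0.003 with library totals, 0.008 without CBM 2, 0.04 without EBM 3 and 0.20 without CBM 3. Between libraries of a group the list's median level had an SD of 0.15 on the log2 scale, larger than each of these shifts and than the median itself. In CPM in place of TPM, the share of Myc among Max partners was 23.3% in CBM and 10.0% in EBM (44.6% and 22.5% in TPM), since CPM does not correct for the short Myc transcript. Deviations from the group mean had r of 0.68, -0.20 and 0.20 between libraries of the same replicate number (1, 2 and 3). Between unlike numbers r was from -0.67 to 0.51. Deviations of 3 libraries from their own mean are tied to each other, so these values cannot decide whether the numbers are pairs. The labels do not say so either, and the main fit took the libraries as unpaired. With the replicate block the fit called 0 genes (1203 at an unadjusted p under 0.05, 1056 without it) and gave Myc a log2 fold change of -1.25. At 16436526 to 19462964 counts a library, Mycn, Mycl and the list genes under the filter on low counts could not be compared.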
